A study of Mus musculus with 10 samples.

Results

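The 10 genes described here encode alpha and beta tubulin isotypes, and they were taken by symbol from the 23420 rows of a platelet count table. They are the beta tubulins Tubb1, Tubb2a, Tubb4b, Tubb5 and Tubb6 and the alpha tubulins Tuba1a, Tuba1b, Tuba1c, Tuba4a and Tuba8. The table lists 16 alpha and beta tubulin genes in all, pseudogenes aside, and the 10 members held 97.1 to 100% of the tubulin counts of each library. Blood platelets of adult mice were separated by flow sorting into a Tomato+ and a Tomato- fraction, with 5 libraries each. Their polyadenylated RNA was amplified by a Smart-seq+ protocol. Tomato is a red fluorescent protein. No source used here gives the promoter that drives it, the mouse strain, or whether each library came from an animal of its own. All p-values therefore rest on the spread among the 5 libraries of a fraction, and that spread may be technical.

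Microtubules are polymers of alpha and beta tubulin dimers, and the genome holds several genes for each subunit. In a resting platelet a coil of microtubules, the marginal band, runs around the rim of the cell and keeps it disc-shaped. The beta isotype encoded by Tubb1 is largely restricted to megakaryocytes and platelets, and loss of it in mice gives fewer and rounder platelets. Isotypes differ mainly in the acidic tail at the carboxyl end, which microtubule-associated proteins bind and enzymes modify. Most alpha tubulins end in a tyrosine that can be removed and put back.

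The last 60 bases of the coding sequence, which encode that tail, are shown for 7 of the 10 members because they tell those isotypes apart, and each ends in its stop codon. Sequences are from GENCODE M21 transcripts on GRCm38, written in the sense of the messenger RNA, and the capitals mark the last codon before the stop. The beta tubulin ends were as follows.
Tubb1 (chr2:174457823-174457882, plus strand): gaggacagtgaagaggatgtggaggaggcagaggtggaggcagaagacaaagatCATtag
Tubb2a (chr13:34074468-34074527, minus strand): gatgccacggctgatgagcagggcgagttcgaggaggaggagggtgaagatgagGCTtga
Tubb4b (chr2:25222308-25222367, minus strand): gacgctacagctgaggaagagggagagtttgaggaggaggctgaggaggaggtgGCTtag
Tubb5 (chr17:35834982-35835041, minus strand): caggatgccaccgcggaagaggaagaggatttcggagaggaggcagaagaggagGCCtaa

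The alpha tubulin ends were as follows.
Tuba4a (chr1:75215622-75215681, minus strand): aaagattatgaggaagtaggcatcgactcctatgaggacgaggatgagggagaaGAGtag
Tuba1c (chr15:99037950-99038009, plus strand): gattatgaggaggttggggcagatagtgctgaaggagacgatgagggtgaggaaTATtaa
Tuba8 (chr6:121226020-121226079, plus strand): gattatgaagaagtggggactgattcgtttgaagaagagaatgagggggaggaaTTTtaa

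Of these alpha isotypes, the last codon was a tyrosine codon in Tuba1c but not in Tuba4a or Tuba8. Coding lengths of the 10 members lay between 1335 and 1356 bases. Reads can be assigned to an isotype only where its transcript differs from those of other genes. Of the 50-base windows of the transcript, 0% of those of Tubb1 were found in the transcripts of any other annotated gene, 0% of those of Tubb6 and 0.12% of those of Tubb5. The share was 83.1% for Tuba1b, 75.5% for Tuba1a and 61.0% for Tuba1c, which share windows with each other and with several pseudogenes. Tubb4b shared 55.5% of its windows, mostly with a pseudogene copy, and Tubb2a shared 49.6%, mostly with its neighbour paralog Tubb2b. For Tuba4a (48.8%) and Tuba8 (14.7%) nearly all shared windows belonged to a gene annotated on the opposite strand of the same locus, Stk16 for Tuba4a. No source used here says how the deposited counts treat such reads, so the counts of these members, and of Tuba1a, Tuba1b and Tuba1c above all, are uncertain, and the part of shared sequence in the levels below was not tested.

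**Figure D1:**
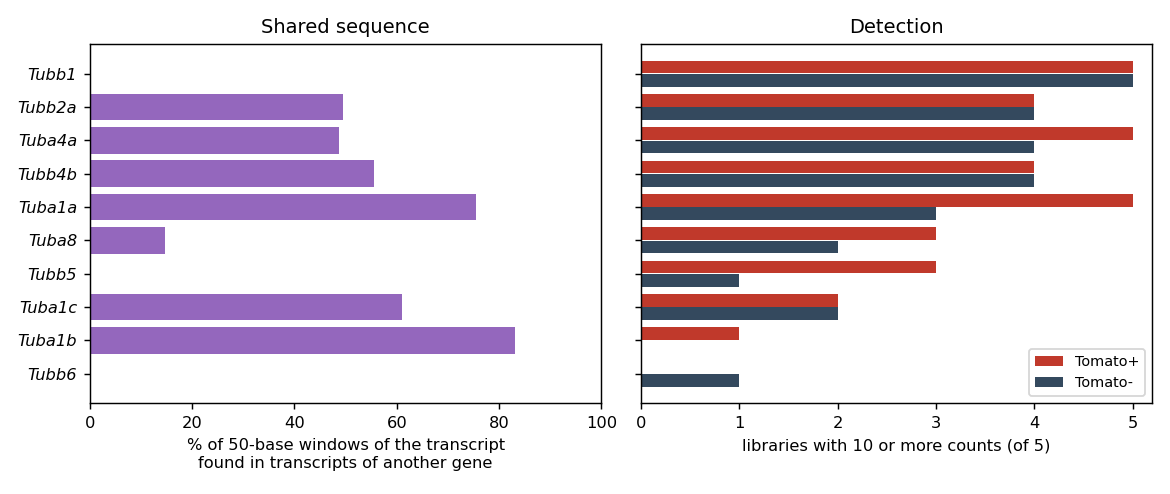
Left, percent of the 50-base windows of each isotype's transcript that also occur in transcripts of another gene; right, number of Tomato+ (red) and Tomato- (dark) libraries, of 5 each, in which the isotype had 10 or more counts. Tubb1 shared 0% and had 10 or more counts in all 10 libraries, Tuba1b shared 83.1% and had them in 1, and Tubb6 shared 0% and also had them in 1.

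Total counts per library were 6.51 to 16.2 M in Tomato+ and 5.41 to 10.6 M in Tomato- (M, 1000000 counts), and the genes with a count numbered 1118 to 2450 in Tomato+ and 807 to 2430 in Tomato-. Replicates 1, 2 and 5 of Tomato- had under 1000 genes each. Platelet marker genes had counts in every library for 10 of 10 listed genes, with 45234 to 59466 CPM in sum in Tomato+ and 49444 to 62083 CPM in Tomato- (CPM, counts per 1000000 counts of the library). Of 5 monocyte markers, Lyz2 had 6256 to 8692 CPM in Tomato+ and 5881 to 9029 CPM in Tomato-, Ly6c2 reached 0.087 CPM in 1 Tomato+ library, and the other 3, Csf1r, Ccr2 and Cd68, had 0 counts in all libraries. Of 6 neutrophil markers, S100a9 had 239.8 CPM in 1 Tomato+ library and the other 5 had 0 counts in all libraries. The B cell markers Cd79a and Cd79b and the T cell markers Cd3d and Cd3e had 0 counts in all libraries, and Nkg7, of T and NK cells, had 20.7 CPM in 1 Tomato- library. Of 5 endothelial markers, 3 had counts, with sums of 4.39 to 294 CPM in Tomato+ and 57.8 to 270.2 CPM in Tomato-. The 8 listed red cell markers matched 6 rows. Of these rows 3 had counts, with sums of 1.38 to 338 CPM in Tomato+ and 47.7 to 3440 CPM in Tomato-. The part of these other cells in the results was not tested. Titles number the Tomato+ samples 1 to 5 and the Tomato- samples 6 to 10, and an effect of this numbering and one of the fraction cannot be told apart.

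Tubulin transcripts made up 0.536 ± 0.224% of Tomato+ counts and 0.530 ± 0.157% of Tomato- counts (SD, n = 5 each). The 10 members summed to 5362 ± 2242 CPM in Tomato+ and 5299 ± 1574 CPM in Tomato- (SD, n = 5 each). The lowest and highest sums were 2556 and 8370 CPM in Tomato+, and 2857 and 6739 CPM in Tomato-, so the groups overlapped. In these bulk libraries fewer cells of a type and less RNA per cell cannot be told apart. Beta members made up most of the sum, with 4645 ± 2035 CPM in Tomato+ and 4198 ± 1570 CPM in Tomato-. Alpha members summed to 718 ± 336 CPM in Tomato+ libraries and to 1102 ± 304 CPM in Tomato- libraries. Their ranges, 396 to 1194 CPM in Tomato+ and 824 to 1477 CPM in Tomato-, overlapped, and this sum was not tested. Per kilobase of exon, which allows genes of different length to be compared, the beta members stood 26.3, 7.13, 12.6, 12.2 and 15.7 times above the alpha members in Tomato+ replicates 1 to 5. In Tomato- replicates 1 to 5 this ratio was 7.26, 6.34, 15.8, 12.2 and 3.30. The ratio was above 1 in all 10 libraries and its ranges overlapped between the fractions. Its size depends on the annotated exon lengths.

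Tubb1 led the pool. It was the highest isotype per kilobase in 10 of 10 libraries, at 2642 ± 1224 CPM per kilobase in Tomato+ and 2520 ± 1132 CPM per kilobase in Tomato- (SD, n = 5 each). Its share of the beta members per kilobase was 79.5, 81.1, 83.2, 84.5 and 87.2% in Tomato+ replicates 1 to 5 and 91.9, 83.2, 96.2, 85.1 and 71.6% in Tomato- replicates 1 to 5. The Tomato+ shares lay within the wider Tomato- range, and the means were 83.1 ± 3.004% in Tomato+ and 85.6 ± 9.39% in Tomato-. The gene lies at chr2:174450695-174457882 (plus strand, GRCm38). Its GENCODE transcript has 50 bases outside the coding sequence, and the RefSeq gene ends 498 bases further downstream, so the level per kilobase of Tubb1 depends on the annotation used. Without length scaling, the share of Tubb1 among beta counts was 79.1% in Tomato+ and 82.7% in Tomato-.

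**Figure D2:**
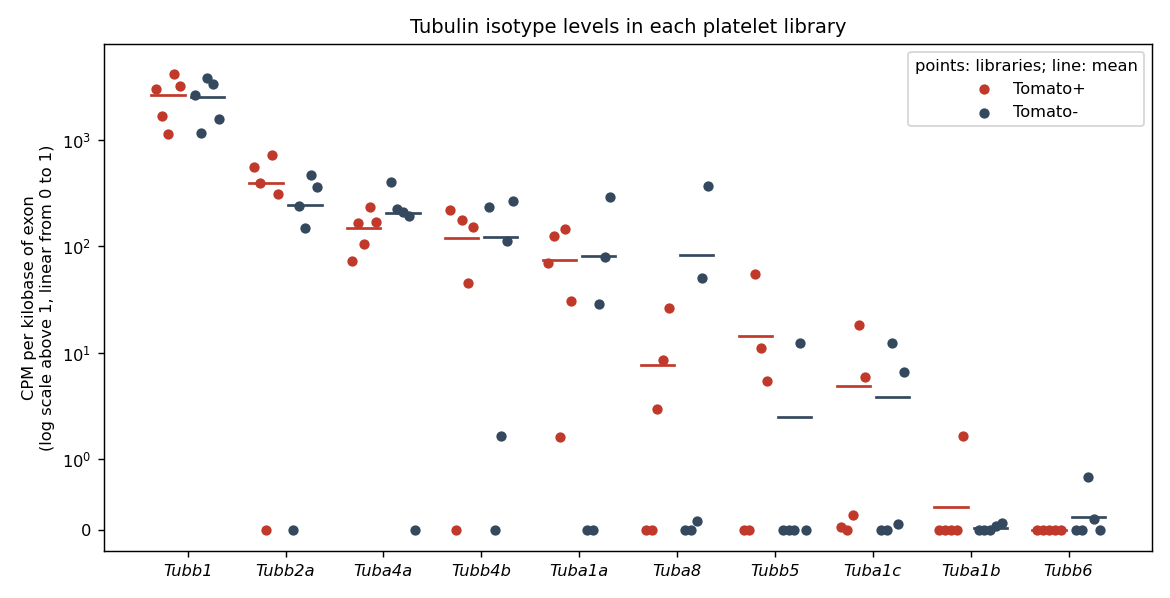
CPM per kilobase of exon (log scale above 1, linear below) of each tubulin isotype in the 5 Tomato+ (red) and 5 Tomato- (dark) libraries; points are libraries and lines are means. Tubb1 is the one isotype present in all 10 libraries, and every isotype's groups overlap.

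In CPM, Tubb1 had 4199, 2371, 1609, 5894 and 4501 in Tomato+ replicates 1 to 5 and 3744, 1651, 5367, 4736 and 2215 in Tomato- replicates 1 to 5. Both fractions held low and high libraries, with a 3.66-fold range in Tomato+ and a 3.25-fold range in Tomato-. The log2 fold change of Tomato+ over Tomato- was 0.21 (SE 0.44, 95% interval -0.72 to 1.15) and did not pass (edgeR quasi-likelihood test, adjusted p = 0.9996). That estimate equals the median log2 fold change of 0.21 over all 1016 tested genes. With scaling by total counts the median was -0.028 and the estimate for Tubb1 0.067, and the median was 0.56 with the replicate block and 0.95 with limma voom. Without the 3 libraries under 1000 detected genes, all Tomato-, the estimate for Tubb1 was -0.44 and the median -0.0094. The sign of the Tubb1 estimate also turned without Tomato+ replicate 4 (-0.035) or without Tomato- replicate 2 (-0.014).

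The 5 genes whose levels lay closest to those of Tubb1 over the 10 libraries, each centred on its mean, were Itga2b, Arpc2, Ctsd, Itgb3 and Hist1h2bc. Likeness was measured as the root-mean-square difference of centred log2 CPM among the 215 other genes with at least 10 counts in every library that are not predicted gene models and have a symbol. It was 0.46 for Itga2b, the platelet integrin alpha subunit, and 0.46 for Arpc2, a subunit of the actin-nucleating Arp2/3 complex. It was 0.48 for Ctsd, the lysosomal protease cathepsin D, 0.49 for Itgb3, the beta subunit that pairs with Itga2b, and 0.49 for the histone gene Hist1h2bc, against a median of 0.92 over all these genes. The SD of Tubb1 itself was 0.70 on this log2 scale. These are descriptions of 10 libraries that also share differences in depth.

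Tubb2a and Tubb4b, beta isotypes of many tissues, made up most of the rest of the beta pool. Tubb2a (chr13:34074274-34078007, minus strand) had 891, 632, 0, 1152 and 499.6 CPM in Tomato+ replicates 1 to 5 and 0, 382, 239, 751 and 576 CPM in Tomato- replicates 1 to 5. It was absent from 1 library of each fraction and between 239 and 1152 CPM in the others, with overlapping groups. Over Tomato-, Tomato+ had a log2 fold change of 0.88 (SE 1.77, edgeR adjusted p = 0.9996), with a 95% interval of -2.89 to 4.64. The paralog Tubb2b, with which it shares most of its ambiguous windows, had 347 counts in Tomato- replicate 4, 41 in Tomato+ replicate 5 and at most 3 elsewhere.

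Tubb4b (chr2:25222160-25224702, minus strand) had 457, 0, 370.4, 94.4 and 319 CPM in Tomato+ replicates 1 to 5 and 492, 0, 3.41, 234 and 555 CPM in Tomato- replicates 1 to 5. Replicate 2 of each fraction had none, and the groups overlapped. The fitted log2 fold change was 0.21 (SE 2.18, edgeR adjusted p = 0.9996) and became -0.046 with scaling by total counts. Second place among the beta members per kilobase went to Tubb2a in 8 libraries and to Tubb4b in the 2 libraries without Tubb2a, Tomato+ replicate 3 and Tomato- replicate 1.

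Tubb5, the beta tubulin of most dividing cells (chr17:35833921-35838306, minus strand), was found in 4 libraries. It had 0, 0, 181, 37.1 and 17.96 CPM in Tomato+ replicates 1 to 5, and in Tomato- 41.3 CPM in replicate 4 and 0 in the other 4. Without Tomato+ replicate 3 its Tomato+ mean was 13.8 CPM in place of 47.2. Tubb6 (chr18:67390717-67402749, plus strand) had 0 counts in 5 of 5 Tomato+ libraries, and in Tomato- 19 counts in replicate 3 and 4 counts in replicate 4. Where a library had 0 counts of a member, 3 counts would have been 0.185 to 0.461 CPM in Tomato+ and 0.284 to 0.554 CPM in Tomato-. These limits cover counting error only, as the reads carry no molecular identifiers. Counts of 0 were also found for isotypes abundant elsewhere: Tubb2a, Tubb4b and Tuba4a, whose highest libraries had 1152, 555 and 1477 CPM, each had 0 counts in at least 1 other library.

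**Figure D3:**
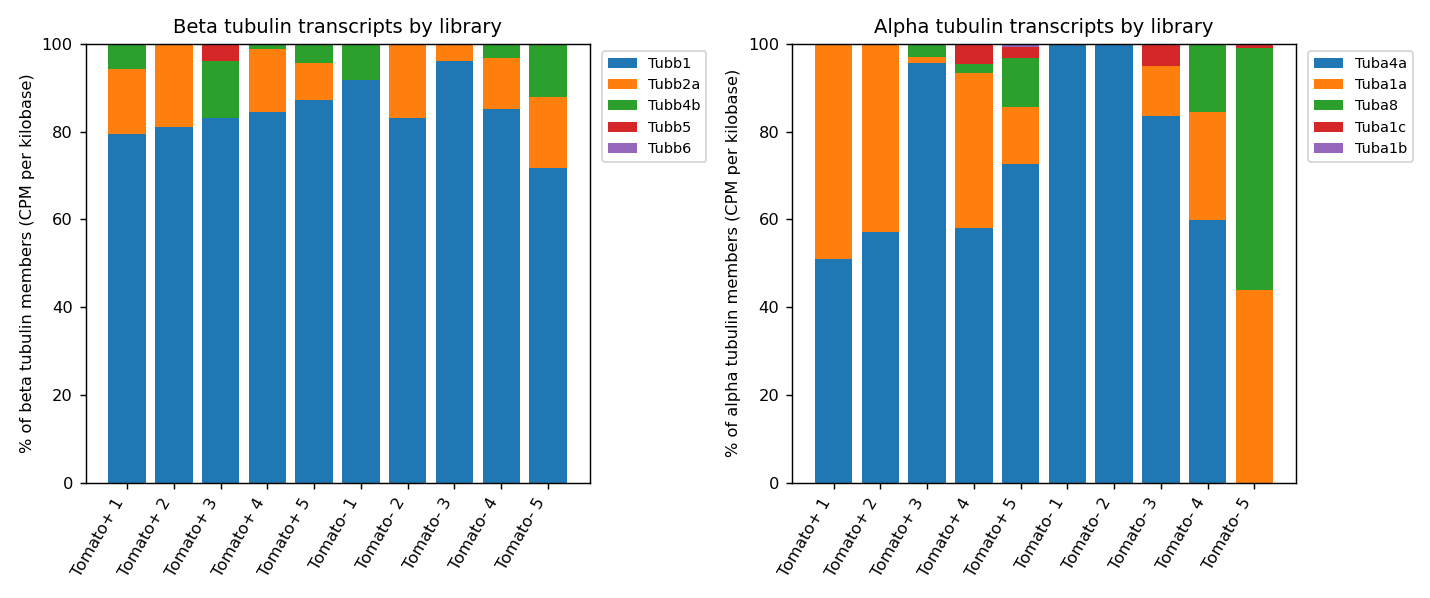
Share of each isotype among the 5 beta members (left) and the 5 alpha members (right), from CPM per kilobase of exon, in each library, Tomato+ left of Tomato-. Tubb1 takes 71.6 to 96.2% of the beta members in every library, while the alpha members are led by Tuba4a in 9 libraries and by Tuba8 in Tomato- replicate 5.

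Tuba4a was the leading alpha isotype. This alpha tubulin, which carries no encoded tyrosine at its end, is known from mutant mice to be needed for normal platelet numbers and marginal bands. The gene (chr1:75214228-75219865, minus strand) had 270, 617, 386, 873 and 629.5 CPM in Tomato+ replicates 1 to 5, and 1477, 824, 776, 719 and 0 CPM in Tomato- replicates 1 to 5. It was present in 9 libraries, and the Tomato- libraries held both the highest value and the 1 library without a count. The log2 fold change of Tuba4a was -0.21 (SE 1.31, 95% interval -2.99 to 2.57, edgeR adjusted p = 0.9996). It was 0.15 without Tomato- replicate 1 and 0.12 with the replicate number as a block. Stk16, on the opposite strand, had 1 count in Tomato+ replicate 4 and 0 in the other 9 libraries. Of the alpha members per kilobase, Tuba4a made up 66.9 ± 17.9% in Tomato+ and 68.7 ± 41.8% in Tomato- (SD, n = 5 each). The share was 50.9 to 95.6% over the Tomato+ libraries, and 100% in Tomato- replicates 1 and 2. Without length scaling its share of alpha counts was 78.9% in Tomato+ and 72.9% in Tomato-. Per kilobase Tubb1 stood 10.1 to 41.0 times above Tuba4a in Tomato+ and 5.27 to 18.2 times above it in the 4 Tomato- libraries that had Tuba4a. These ratios depend on the annotation, as the exons of Tuba4a span 3701 bases over 8 transcripts and its longest transcript 2840.

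Tuba1a, best known from developing neurons (chr15:98949837-98953703, minus strand), was the next alpha isotype per kilobase over the 10 libraries and in Tomato+. In Tomato- the mean of Tuba8 was higher, at 83.6 CPM per kilobase, with 80.1 for Tuba1a. Tuba1a had 127, 225, 2.92, 259.6 and 54.6 CPM in Tomato+ replicates 1 to 5, and 0, 0, 51.6, 144 and 527 CPM in Tomato- replicates 1 to 5. It was found in 5 Tomato+ and 3 Tomato- libraries, and the highest value was in Tomato-. The log2 fold change of Tuba1a was 0.15 (SE 2.30, edgeR adjusted p = 0.9996) and turned to -0.11 with scaling by total counts. Without replicate 5 its Tomato- mean was 48.8 CPM in place of 144.

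Tuba8 (chr6:121210696-121226854, plus strand), an alpha isotype whose last codon also differs from tyrosine, had 0, 0, 6.61, 19.1 and 59.8 CPM in Tomato+ replicates 1 to 5. In Tomato- replicates 1 to 5 it had 0, 0, 0.284, 114 and 832 CPM. Replicate 5 of Tomato- stood apart, and it is the library in which Tuba4a had 0 counts, so that Tuba8 made up 55.1% of its alpha members per kilobase and Tuba1a 43.9%. The log2 fold change of Tuba8 was -3.04 (SE 2.98, 95% interval -9.36 to 3.29, edgeR adjusted p = 0.9996). Without that library the log2 fold change was -0.70, and with the replicate number as a block it was -0.83. Its Tomato- mean was 28.5 CPM without that library, in place of 189, and its Tomato+ mean 6.43 CPM without replicate 5, in place of 17.1.

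Tuba1b and Tuba1c, alpha tubulins of most proliferating cells, were scarce. Tuba1c (chr15:99029891-99038110, plus strand) had 676 counts in Tomato+ replicate 4, 153 in Tomato+ replicate 5 and at most 3 in the other 3 Tomato+ libraries. In Tomato- it had 298 counts in replicate 3, 81 in replicate 5 and at most 2 elsewhere. Tuba1b (chr15:98931425-98934565, minus strand) had 35 counts in Tomato+ replicate 5, and 1 count each in Tomato- replicates 4 and 5. These are the members with shared windows among the most frequent, at 83.1% for Tuba1b and 61.0% for Tuba1c.

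The order of mean levels per kilobase over the 10 libraries was Tubb1, Tubb2a, Tuba4a, Tubb4b, Tuba1a, Tuba8, Tubb5, Tuba1c, Tuba1b and Tubb6. Tubb1 and Tubb2a differed by 2263 CPM per kilobase with an SD of 1026 over libraries, and Tubb1 was the higher in 10 of 10. Below that, the mean difference between each pair of neighbours was smaller than its SD over libraries. Tubb2a exceeded Tuba4a in 7 of 10 libraries, Tuba4a exceeded Tubb4b in 7 and Tubb4b exceeded Tuba1a in 5. The number of isotypes with 10 or more counts was 5, 4, 6, 8 and 9 in Tomato+ replicates 1 to 5, against 3, 3, 7, 7 and 6 in Tomato- replicates 1 to 5. Replicates 1 and 2 of Tomato-, with 3 isotypes each, had 902 and 978 detected genes, whereas replicate 5, with 6, had 807.

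No isotype was called different between the fractions. Of the 10 members, 6 passed the expression filter and were tested, and 0 of 6 were called at an adjusted p under 0.05, against 0% of all 1016 tested genes. At an unadjusted p under 0.05 edgeR had 0 of the 6 members and 9 of the 1016 genes (0.886%). DESeq2 and limma voom also called 0 members, and each called 1 gene, Tug1 and Ctla2a, which are named here after their values were seen. The estimate was above 0 for 4 of the 6 tested members, near the 58.3% of all tested genes, with a median log2 fold change of 0.18 against 0.21. With scaling by total counts it was above 0 for Tubb1 and Tubb2a alone, 2 of 6, against 48.6% of all tested genes. Tubb1 was the 1 tested member with a count in every library, as were 25.1% of tested genes. The ranges of the fractions overlapped for 10 of 10 members, while 0.591% of tested genes had ranges that did not overlap. Only for Tubb1 was the 95% interval within a log2 fold change of 2 in either direction, so for the other 5 tested isotypes even changes of that size lay inside the interval.

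**Figure D4:**
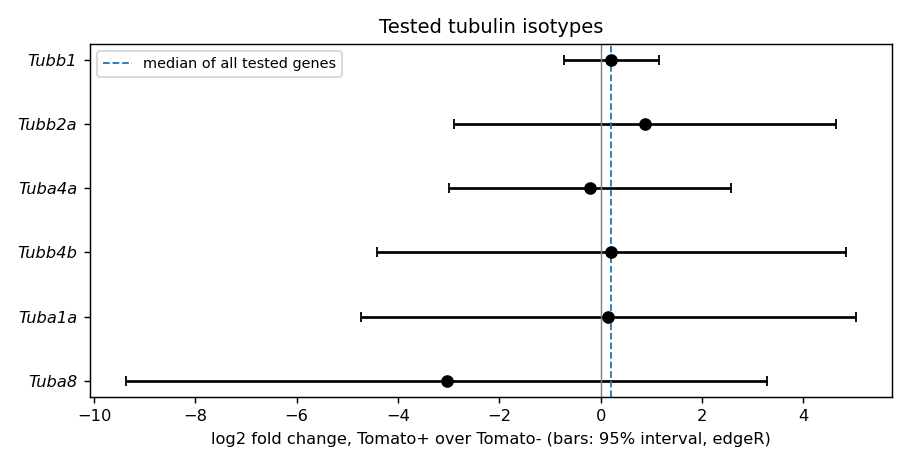
Log2 fold change of Tomato+ over Tomato- (edgeR, 95% intervals) of the 6 tested isotypes, with the median of all tested genes as a dashed line. Every interval spans 0, and that of Tubb1 (-0.72 to 1.15) is the narrowest of the 6.

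Most other genes of the microtubule system had counts in few libraries or in none. In the table as a whole 4692 of 23420 rows had a count in any library, so a lack of counts is not particular to these genes. Each list below except that of gamma tubulin had a count for a larger share of its genes than the table. Of the 6 alpha and beta tubulin genes outside the members, 6 had a count in some library but none passed the expression filter. The highest of them were Tubb4a, Tuba3b and Tubb2b. They came mostly from 2 libraries: together the 6 genes had 449 counts in Tomato+ replicate 3 and 2101 in Tomato- replicate 4, and at most 41 in any other library. Tubb4a, a beta isotype of brain, had 1044 counts in Tomato- replicate 4. The list of gamma tubulin, which nucleates microtubules, and of its complex also held Tubd1 and Tube1, the genes of delta and epsilon tubulin. In all libraries 9 of 9 genes of this list, Tubg1 included, had 0 counts.

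Of 21 genes for tubulin folding, 10 had a count, with 113 to 669 CPM in sum in Tomato+ and 3.002 to 1374 CPM in Tomato-. Pfdn5, a prefoldin subunit that hands new tubulin to the chaperonin, was in all 10 libraries, with 113 to 339 CPM in Tomato+ and 3.002 to 456 CPM in Tomato-, and was the 1 tested gene of the list (log2 fold change -0.0023, SE 1.64). Vbp1, a further prefoldin subunit, reached 876 CPM in 1 Tomato- library, and the cofactor Tbca reached 87.3 CPM in Tomato+ and 120.4 CPM in Tomato-. Of 17 genes for tubulin modification, 6 had a count. Ttl, which puts the tyrosine back on alpha tubulin, and the tubulin deacetylase Hdac6 were at 0 in all libraries. Ttll1, a tubulin polyglutamylase, was found in 4 Tomato+ libraries (0 to 193 CPM) and 2 Tomato- libraries (0 to 139 CPM). Sirt2, which also removes acetyl groups from tubulin, was found in 1 Tomato+ library at 34.2 CPM and in 2 Tomato- libraries at up to 667 CPM, and Ttll7 in 1 library of each fraction.

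Of 18 microtubule-associated proteins, 6 had a count, among them the end-binding proteins Mapre1 and Mapre2. Mapre1 was in 4 libraries of each fraction, at 0 to 618 CPM in Tomato+ and 0 to 578 CPM in Tomato-. Mapre2 was in 3 Tomato+ libraries at up to 1057 CPM and in 2 Tomato- libraries at up to 211 CPM, with a log2 fold change of 2.17 (SE 2.82, edgeR adjusted p = 0.9996). Map7d1 was in 1 Tomato+ and 2 Tomato- libraries.

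Among the motors, 17 of 21 genes of dynein and its activator dynactin had a count, with sums of 442 to 1152 CPM in Tomato+ and 31.4 to 2987 CPM in Tomato-. Dynlt3, a dynein light chain, was in 5 Tomato+ libraries (99.8 to 633 CPM) and 3 Tomato- libraries (0 to 1345 CPM). Dctn2 was in 3 libraries of each fraction, and Dctn4 in 2 Tomato+ and 3 Tomato- libraries. The light chain gene Dynlt1b was in 3 Tomato+ and 4 Tomato- libraries, and the dynein regulator Ndel1 in 2 Tomato+ and 0 Tomato- libraries. Of 15 kinesin genes, 6 had a count, with sums of 74.4 to 2335 CPM in Tomato+ and 0.5003 to 1329 CPM in Tomato-. Kif2a, a kinesin that depolymerizes microtubules, was in all 10 libraries, at 74.4 to 1960 CPM in Tomato+ and 0.375 to 1148 CPM in Tomato- (log2 fold change 1.38, SE 1.44, edgeR adjusted p = 0.9996). Kif5b, the heavy chain of conventional kinesin, was in 4 Tomato+ libraries at up to 375 CPM and 2 Tomato- libraries at up to 229 CPM, and the light chain gene Klc1 in 2 libraries of each fraction. Of the 10 tested genes of these lists, 0 passed.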

How the data were processed

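The authors deposited 1 table of raw counts of reads per gene, not normalized. The submitters' processing notes name Trimmomatic, FastQC, STAR, featureCounts and mm10 without versions. No source used here gives the annotation, the strand setting or the treatment of multiply aligned reads. Some items are not reported here. The members and gene lists were chosen with earlier results of these data known.

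CPM used the sum of all rows, and levels per kilobase divided CPM by the union of exons in GENCODE M21. Of 23420 symbols, 93.0% matched that annotation. The fractions were compared across all genes by the quasi-likelihood test of edgeR 4.0.16 with R 4.3.3 (TMM factors, robust estimation, default filter with a minimum count of 10 and a minimum total of 15, fraction as the sole term), with Benjamini-Hochberg adjustment over all tested genes at 0.05. SE is the log2 fold change over the square root of F. The test was also run on simulated counts, and the outcome of that run is not used here. Alternatives were scaling by total counts or DESeq2 size factors, DESeq2 1.42.0, limma 3.58.1 (voom), other filters, the replicate number as a block, leaving out each library and, chosen after seeing the data, leaving out the libraries under 1000 detected genes. All 45 pairs of libraries differed by more than sampling noise (chi-square per degree of freedom at least 509.5). Named genes are the members and, from each list, up to 3 of the highest mean CPM and up to 2 of the smallest p; Stk16, Ttl, Tubg1, Hdac6, Csf1r and Cd68 were added after their values were seen.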

Additional observations from a re-analysis of the deposited data

Results flagged for a closer look

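Dixon's test was applied to each member, and to the members' sum, in each fraction with any spread. In 6 of 21 such combinations, 1 of the 5 libraries lay far from the others. The critical value of the test assumes normal values, and these values hold many zeros. A member with counts in 1 library of a fraction, as Tubb5 in Tomato- and Tuba1b in Tomato+, is always flagged. The number flagged can therefore not be set against a rate by chance. Tuba8 had 832 CPM and Tuba1a 527 CPM in Tomato- replicate 5, the library in which Tuba4a had 0 counts. Tubb5 had 181 CPM in Tomato+ replicate 3 and 41.3 CPM in Tomato- replicate 4, the libraries with the most counts of tubulin genes outside the members in their fraction. Tubb6 had 1.80 CPM in Tomato- replicate 3, and Tuba1b 3.05 CPM in Tomato+ replicate 5.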

How the results depend on the processing

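The count of isotypes called was 0 in all 18 alternatives, with 6 to 8 members tested when 1 library was left out, 10 with no filter and Tubb1 alone among genes with 10 counts in every library. Over all genes the count of 0 became 1 with DESeq2 and 1 with limma voom. Same-numbered libraries of the 2 fractions had deviations correlated at -0.11 to 0.12. The most similar Tomato- library bore the same number for Tomato+ replicates 1 and 4, and another number for replicates 2, 3 and 5. In libraries with so few detected genes this cannot decide whether the numbers pair the libraries. With the replicate block 0 genes and 0 members were called, as in the main test. The estimates of Tubb2a and Tuba8 kept their sign in all alternatives in which they were tested, at 0.28 to 2.03 and -4.66 to -0.47. Others turned sign, and the cause was not tested. With scaling by total counts, DESeq2 size factors and the DESeq2 test, Tubb4b had -0.046, -0.019 and -0.019 and Tuba1a -0.11, -0.058 and -0.058. Tuba4a had 1.54 with limma voom and 0.12 with the replicate block, and Tubb1 had -0.44 without the libraries under 1000 detected genes. With 1 library left out, the range was -0.035 to 0.45 for Tubb1, -0.15 to 0.64 for Tubb4b, -0.28 to 1.57 for Tuba1a and -0.54 to 0.15 for Tuba4a. The share of Tubb1 among beta members in Tomato+ was 79.1% without length scaling, in place of 83.1%. At this depth a count of 0 allows 0.185 to 0.554 CPM, by counting error alone.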
